A study of Mus musculus with 8 samples.

Results

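The genes described here are 41 predicted mouse genes that were nearly absent from control oocytes and present in every library of oocytes lacking the deadenylase subunits Cnot7 and Cnot8. They were chosen from the 46078 rows of the count table, of which 17471 carry a provisional name of the form Gm followed by a number. A gene was taken if it had at most 3 counts in each of the 4 control libraries and at least 0.5 CPM (the gene's count divided by the library's total count, times 1000000) in each of the 4 KO libraries, and 7 Gm names were left out by the rule. Of all Gm rows, 6744 had at least 1 count in a library and 1085 reached 0.5 CPM in all 4 KO libraries. Because the rule used the KO and control values themselves, the difference between the groups in these genes is a description and not a test.

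Total RNA of fully grown germinal vesicle (GV) oocytes was measured in 8 libraries, each made from a pool of 100 oocytes. CNOT7&8 KO oocytes came from females with floxed Cnot7 and Cnot8 alleles and the Zp3-Cre transgene, whose promoter drives Cre in growing oocytes, so the surrounding ovarian cells keep both genes. The control oocytes carried Zp3-Cre (4 libraries, against 4 KO libraries). All females were 4 weeks old, of C57BL/6J background, and injected with PMSG, a gonadotropin that stimulates follicle growth. The labels do not say whether replicate libraries came from separate females, so p-values measure only the spread between these libraries. Total counts ran from 8639444 to 26784110 in the KO libraries and from 14943671 to 44092144 in the controls. A count of 3 is therefore 0.068 CPM in the deepest control library and 0.201 CPM in the shallowest.

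Gm names are placeholders given to gene models before a function is known, and they cover protein-coding genes, copies of messenger RNAs inserted back into the genome (processed pseudogenes or retrocopies) and long noncoding RNAs. CNOT7 and CNOT8 are catalytic subunits of the CCR4-NOT complex, which shortens the poly(A) tails of messenger RNAs and so starts their decay. Fully grown GV oocytes are largely transcriptionally silent and live on stored RNA. Some large Gm families, among them copies of the translation initiation factor gene Eif1a and relatives of the PRAME, TD-POZ and Usp17l genes, are known as genes of the 2-cell embryo, the stage at which the mouse genome is first broadly transcribed.

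Cnot8 was lower in all 4 KO libraries (35.3, 39.4, 41.0 and 39.6 CPM) than in the controls (142 to 167 CPM), and its log2 change was -2.25 ± 0.12 (SE; edgeR's quasi-likelihood test, adjusted p = 8.2e-08). Cnot7 stood at 710 to 874 CPM in the KO libraries and at 814 to 890 CPM in the controls, and the groups overlapped in CPM. In the same test its log2 change was -0.38 ± 0.11 (adjusted p = 0.0105), short of 2-fold. Whole-gene counts do not show whether the floxed part was removed, so Cnot7 gives no check of the labels. A gene was called higher or lower at an adjusted p of at most 0.05 and at least a 2-fold change, and over all 19241 tested genes 23.8% were called higher in the KO and 6.56% lower. Of 12 oocyte marker genes none was called, but 8 had an adjusted p of at most 0.05 with log2 changes short of 2-fold, among them Kit (-0.97 ± 0.20, adjusted p = 0.0013) and Ooep (-0.88 ± 0.09, adjusted p = 1.2e-05). Their summed level was 17422 to 20386 CPM in the KO and 17742 to 19026 CPM in the control libraries. Of 15 tested granulosa and cumulus cell markers 5 were called higher in the KO and none lower, and Cyp19a1 (aromatase) had lower values in the KO (log2 change -0.90 ± 0.16, adjusted p = 0.000507). The whole list summed to 243 to 300 CPM in the KO against 121 to 151 CPM in the controls. Of the 5 immune markers 2 of the 3 tested were called higher, with sums of 3.47 to 6.12 against 0.703 to 1.68 CPM, while Cd3e stayed at or below 0.067 CPM and the 4 hemoglobin genes were at 0 in every library. The part of these cell types in the values below was not tested.

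The 41 genes lay on 16 chromosomes. In the GENCODE vM21 annotation of GRCm38, 19 were long noncoding RNAs, 11 pseudogenes, 10 protein-coding genes and 1 a microRNA entry. Protein-coding models made up 24.4% of the 41 genes, against 9.90% of the Gm rows with at least 1 count and 8.31% of all annotated Gm rows. Long noncoding RNAs made up 46.3%, against 31.2% and 22.4%. Pseudogenes were less frequent than among all annotated Gm rows (26.8% against 38.2%), as were small RNAs (2.44% against 25.2%). The median exon length of the 41 was 1275 bases, against 545 for all annotated Gm rows, and 14 of 41 (34.1%) had a single exon, against 65.4%. The rule set its floor in CPM without regard to length, so these shares describe what passed the rule.

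**Figure D1:**
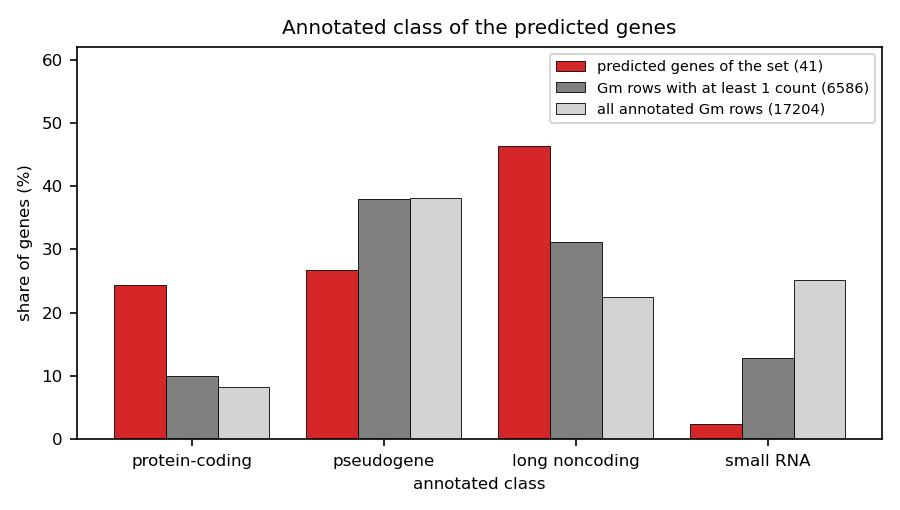
Share of genes (percent, vertical axis) in each annotated class, for the 41 predicted genes, the 6586 annotated Gm rows with at least 1 count and all 17204 annotated Gm rows. Long noncoding RNAs (46.3%) and protein-coding models (24.4%) take larger shares of the 41 genes than of either background, and small RNAs a smaller one (2.44%).

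Sequence likeness divided the set. In a search of each gene's longest transcript against all annotated transcripts, 21 of the 41 had at least 1 related gene, defined as an alignment over at least 50% of the transcript at 80% identity or more, and 11 had one at 95% or more. The pairs below are shown because their counts can be shared: each stretch is 150 bases of coding sequence, or of the copy of it, with the most differences found in the alignment, and capitals mark the bases that differ. Gm2056 (chr12:88027286-88027435, plus strand) and Gm6803 are both in the set and 98.2% identical, with 8 differences over 435 bases. Gm15455 (chr1:33837131-33837280, minus strand) is a processed copy of the RNA-binding protein gene Rbm10, and Gm4997 (chrX:155151162-155151311, minus strand) is one of the ribosomal protein gene Rps20. Gm13101, on chromosome 4, is a relative of the PRAME-family gene Pramef25, and its stretch spans a splice junction. Sequences are from GENCODE vM21 (GRCm38), written 5′ to 3′.
Gm2056: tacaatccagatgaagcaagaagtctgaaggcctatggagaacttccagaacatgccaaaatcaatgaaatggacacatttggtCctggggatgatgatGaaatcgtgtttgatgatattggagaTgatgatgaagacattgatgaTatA
Gm6803: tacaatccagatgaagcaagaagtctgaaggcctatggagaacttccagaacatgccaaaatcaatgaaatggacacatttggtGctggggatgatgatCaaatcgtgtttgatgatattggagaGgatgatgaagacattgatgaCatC
Gm15455: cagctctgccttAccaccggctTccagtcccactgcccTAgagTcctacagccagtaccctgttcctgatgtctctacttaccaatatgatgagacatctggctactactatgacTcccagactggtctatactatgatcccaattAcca
Rbm10: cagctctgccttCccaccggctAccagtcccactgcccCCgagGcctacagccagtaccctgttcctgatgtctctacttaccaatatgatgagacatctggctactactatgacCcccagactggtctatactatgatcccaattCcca
Gm4997: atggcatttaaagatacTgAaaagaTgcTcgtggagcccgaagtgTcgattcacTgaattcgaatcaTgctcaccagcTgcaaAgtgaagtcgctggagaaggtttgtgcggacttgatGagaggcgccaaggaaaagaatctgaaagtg
Rps20: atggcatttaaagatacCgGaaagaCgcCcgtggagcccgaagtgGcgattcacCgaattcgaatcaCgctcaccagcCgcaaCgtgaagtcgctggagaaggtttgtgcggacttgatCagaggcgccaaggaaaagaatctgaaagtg
Gm13101: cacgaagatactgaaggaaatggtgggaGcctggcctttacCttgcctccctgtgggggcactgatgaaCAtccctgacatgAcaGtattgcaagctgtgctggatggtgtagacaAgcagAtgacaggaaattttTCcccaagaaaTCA
Pramef25: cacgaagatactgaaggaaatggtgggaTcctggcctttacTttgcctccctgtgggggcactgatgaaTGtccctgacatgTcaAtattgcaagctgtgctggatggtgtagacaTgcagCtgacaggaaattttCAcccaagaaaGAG

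Even in these most divergent stretches the pairs differ at 5, 7, 10 and 13 positions. How reads that match more than 1 gene were assigned is not given in the sources used here, so the counts of the 21 genes with relatives are uncertain between the copies.

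Summed over the 41 genes, the level was 67.1, 59.6, 127 and 164 CPM in the KO libraries (replicates 1 to 4) and 1.02, 0.907, 1.80 and 1.47 CPM in the controls. In pooled oocytes, RNA present in fewer cells and less RNA per cell cannot be told apart. The set took between 0.00596% and 0.0164% of the counts of a KO library. In all, 7758 counts in the KO and 115 in the control libraries fell on these genes, and 11 of the 41 had no count in any control library. Most were weak also in the KO: 28 had a mean under 2 CPM and 7 had a mean over 5 CPM, and 22 rested on 5 to 10 counts in KO replicate 1, the shallowest library. The 7 genes with most counts held 51.0% of the KO counts. In edgeR's quasi-likelihood test on the whole table (19241 genes at 0.2 CPM or more in at least 2 libraries), 23.8% of all genes were called higher in the KO and 6.56% lower. All 41 genes were called higher, a count that the rule fixed in large part and from which nothing is read. With library sizes taken as total counts in place of the TMM-scaled sizes, 5643 of all genes were called higher and 587 lower, against 4582 and 1263, and the median log2 change of all genes moved from 0.12 to 0.41. Of the 2524 tested Gm genes 787 (31.2%) were called higher and 143 (5.67%) lower.

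**Figure D2:**
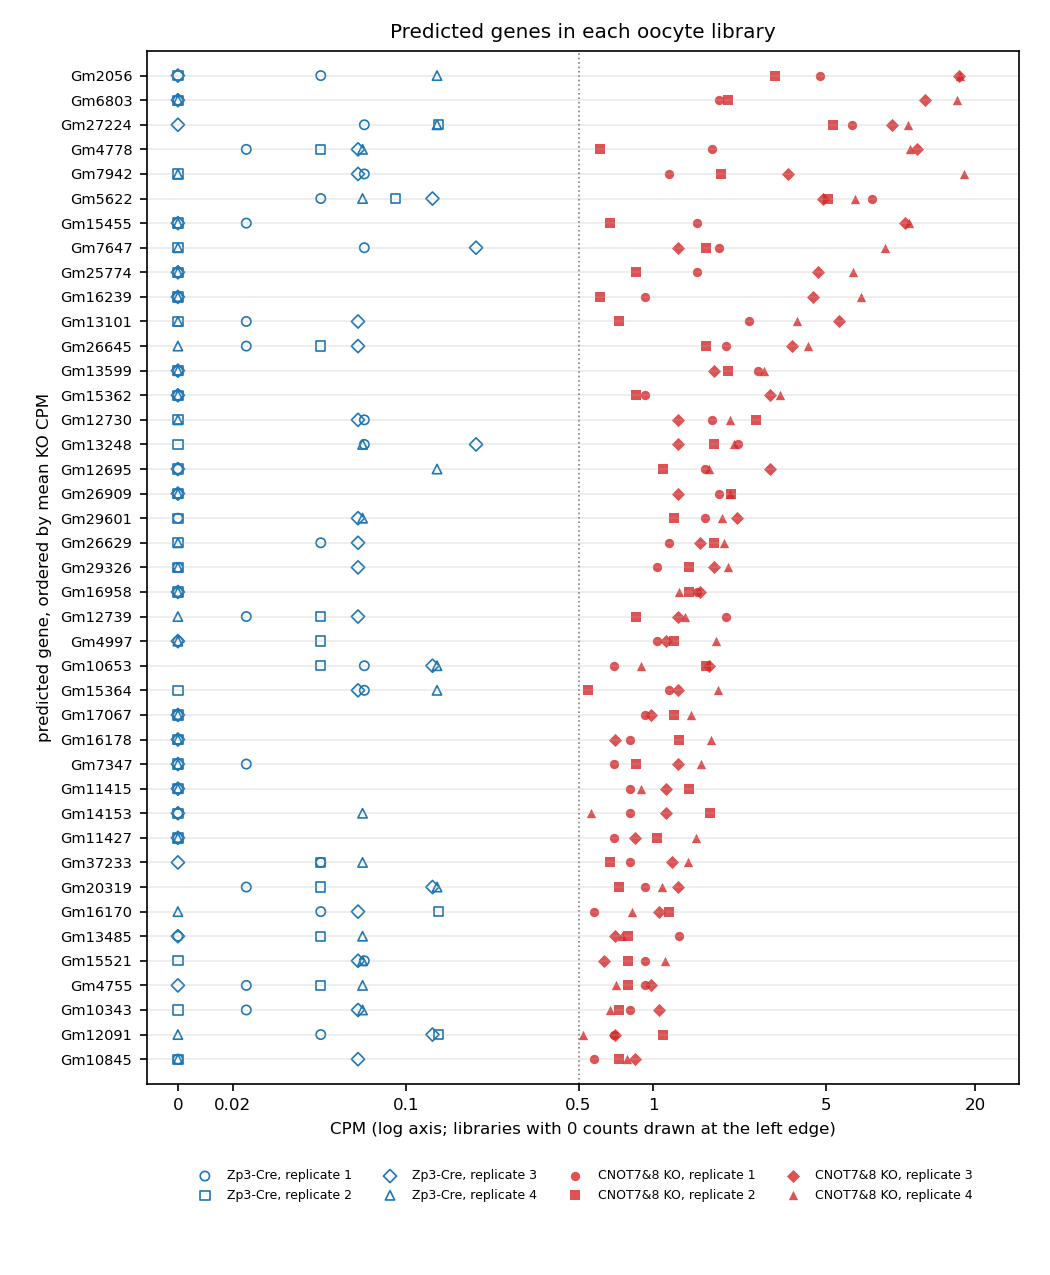
CPM of each of the 41 predicted genes (rows, ordered by mean KO level) in the 4 Zp3-Cre libraries (open blue symbols) and the 4 CNOT7&8 KO libraries (filled red symbols) on a log axis. Libraries with 0 counts stand at the left edge, and the dotted line is the floor of 0.5 CPM that the rule set for each KO library. Mean KO levels run from 0.734 CPM for Gm10845 to 10.6 CPM for Gm2056, and the upper genes spread most widely between KO libraries.

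The highest mean level belonged to a pair of Eif1a-like genes. Eif1a and its X-linked relative Eif1ax encode a factor that helps the small ribosomal subunit find the start codon, and single-exon copies of it cluster on chromosome 12. Gm2056 (ENSMUSG00000095717, 88027004 to 88027438, plus strand) had 4.75, 3.10, 17.2 and 17.4 CPM in the KO libraries (replicates 1 to 4), and 2, 0, 0 and 2 counts in the controls. Gm6803 (ENSMUSG00000096803, 88018337 to 88018771, minus strand), 8233 bases away, had 1.85, 2.01, 12.5 and 16.9 CPM and no control count. Both were higher in KO replicates 3 and 4 than in replicates 1 and 2. That no KO library overlapped the controls follows from the rule, here as in all 41 genes.

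The mean of Gm2056 was 10.6 ± 7.73 CPM (SD, n = 4), and its pooled KO-to-control ratio of CPM was 293 (95% interval 114 to 1078, exact, covering counting error only). Gm6803, with a mean of 8.32 ± 7.60 CPM, was at least 55.7-fold higher in the KO than the floor of 3 counts per control library. Of the 13 related genes of Gm2056 that were tested, 12 were called higher in the KO, against 23.8% of all genes, and they include Gm6803 itself and names that the rule left out. Gm8332, 98.2% identical to Gm2056, had 69.8, 57.4, 158 and 165 CPM in the KO and at most 0.18 CPM in the controls (log2 change 9.25 ± 0.49, adjusted p = 9.3e-08). Eif1ax, 85.3% identical, was the tested relative not called higher (210 ± 17.1 CPM in the KO, 264 ± 18.3 CPM in the controls, log2 change -0.61 ± 0.11, adjusted p = 0.000607).

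A second group was related to PRAME, a family of leucine-rich repeat proteins with many copies in the mouse genome, several of them expressed in germ cells and early embryos. Gm7942 (ENSMUSG00000092166, chromosome 5, 95106938 to 95111158) had 1.16, 1.89, 3.52 and 18.0 CPM in the KO libraries (replicates 1 to 4) and 3, 0, 1 and 0 counts in the controls. Gm7647 (ENSMUSG00000073510, chromosome 5, 94963018 to 94965694), annotated as an unprocessed pseudogene, had 1.85, 1.64, 1.27 and 8.66 CPM. In both, KO replicate 4 stood far above the other KO libraries. Without it, the levels of Gm7647 in the KO lay within 1.27 to 1.85 CPM.

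Gm7647 is 99.9% identical to Gm6509 and 97.3% identical to Gm7942. Gm13101 (ENSMUSG00000078510, chromosome 4, 143964518 to 143966950), the relative of Pramef25 shown above, had 2.43, 0.73, 5.63 and 3.81 CPM, lowest in KO replicate 2. Pramef25 itself had 41.9, 34.1, 166 and 163 CPM in the KO and 0.454 to 0.669 CPM in the controls (log2 change 7.22 ± 0.61, adjusted p = 1.9e-06). All 3 tested relatives of Gm13101 were called higher in the KO, too few to set against the 23.8% of all genes. Of the 8 tested relatives of Gm7942, 7 were called higher, against 23.8% of all genes and 31.2% of Gm genes. The relatives of Gm7942 include Gm7647, whose call the rule fixed, and the reverse holds for Gm7647. The relatives of Gm7647 reach into a more distant branch, C87414, that oocytes of both groups hold in quantity (1206 ± 122 CPM in the KO, 1334 ± 234 CPM in the controls), and 7 of its 11 tested relatives were called higher.

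Other protein-coding models belonged to multi-copy families with different profiles. Gm4778 (ENSMUSG00000089696, chromosome 3, 94264036 to 94266784) is related to the TD-POZ genes, which resemble the ubiquitin ligase adaptor SPOP, and had 1.74, 0.609, 11.6 and 11.0 CPM in the KO and 1 count in each control library. Its highest KO level was 19.1 times its lowest, the widest spread of the 41 genes. Of its 20 tested relatives, 18 were called higher, against 23.8% of all genes. Gm5622 (ENSMUSG00000079244, chromosome 14, 51552790 to 51662953), which has relatives among other Gm models of unknown function, had 7.64, 5.11, 4.86 and 6.57 CPM, and here KO replicate 1 was the highest.

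Gm5622 had a mean of 6.04 ± 1.30 CPM, and 7 of its 17 tested relatives were called higher and none lower, against 23.8% of all genes and 31.2% of tested Gm genes called higher. Gm13248, listed as Zfp993 in the annotation, is a member of a zinc finger gene cluster on chromosome 4 and had 2.20, 1.77, 1.27 and 2.13 CPM. All 18 of its tested relatives were called higher (23.8% of all genes were), among them Zfp991 (9.03 ± 2.25 CPM against 0.685 ± 0.296 CPM, log2 change 3.32 ± 0.33, adjusted p = 6.97e-06), 99.7% identical over 79.9% of the transcript. Gm17067, another zinc finger model, had 0.926 to 1.42 CPM in the KO and no control count. Gm7347 (0.694 to 1.57 CPM) belongs to the Speer genes, a rodent family best known from testis, and 3 of its 6 tested relatives were called higher, too few to set against the 23.8% of all genes. Speer4a, 96.7% identical, was not (12.05 ± 0.233 CPM in the KO and 11.5 ± 1.19 CPM in the controls, adjusted p = 0.228).

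Gm12695 (chromosome 4) was the protein-coding model with most exons, 11 in its longest transcript. It had no related gene. Its levels were 1.62, 1.10, 2.96 and 1.68 CPM in the KO with 2 counts in all controls together.

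Processed copies of housekeeping and RNA-binding genes made up most of the 11 pseudogenes. Gm15455 (ENSMUSG00000081402, chromosome 1, 33836124 to 33838680, minus strand), the copy of Rbm10, had 1.505, 0.669, 10.4 and 10.8 CPM in the KO libraries (replicates 1 to 4) and a single count in all controls. Rbm10, a splicing regulator on the X chromosome, had 18.5, 12.9, 23.8 and 14.6 CPM in the KO and 2.88 to 5.45 CPM in the controls (log2 change 1.93 ± 0.24, adjusted p = 3.5e-05). The copy was 16.2 times higher in its highest than in its lowest KO library, and Rbm10 itself did not separate KO replicates 3 and 4 from the others.

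The other copies were weaker. Gm15362, a copy of the WW-domain protein gene Wbp2, had 0.926, 0.852, 2.96 and 3.25 CPM and no control count, and Gm15364, a copy of the calcium-binding protein gene Chp1 that lies 6544 bases away on the X chromosome, had 1.16, 0.548, 1.27 and 1.83 CPM. Gm12739 (Rps24), Gm4997 (Rps20), Gm10653 and Gm12091 (Rps2) and Gm10343 (Rpl30) are copies of ribosomal protein genes, with mean KO levels from 0.754 to 1.36 CPM. Each of these copies was 89.6% to 97.3% identical to its source gene. Of the 7 source genes, Rbm10 was called higher in the KO and the other 6 were called neither higher nor lower. Among all tested relatives, none was called higher for Gm12739 (2 of 4 lower), Gm4997 (3 tested) and Gm10343 (2 tested). The same held for Gm15362 and Gm15364 (1 tested each). For Gm10653 and Gm12091, 2 of 5 were called higher, each including the other gene, and for Gm15455 2 of 2. These are too few to set against the 23.8% of all genes called higher. Rps20 stood at 135 ± 34.8 CPM in the KO and 133 ± 39.5 CPM in the controls (adjusted p = 0.324), and Chp1 at 77.5 ± 7.92 and 63.5 ± 11.7 CPM (adjusted p = 0.965). Rps2 (log2 change -0.63 ± 0.16, adjusted p = 0.00583), Rps24 (-0.43 ± 0.11, 0.00615), Rpl30 (-0.70 ± 0.12, 0.000399) and Wbp2 (-0.42 ± 0.14, 0.0219) had lower values in the KO that did not reach 2-fold.

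The long noncoding RNAs were the largest class and had the smallest median ratio of highest to lowest KO level (1.79). The rule's floor of 0.5 CPM in each KO library limits this ratio in weak genes. Gm27224 (ENSMUSG00000098685, chromosome 9, 80802651 to 80864861) led them with 6.37, 5.36, 9.22 and 10.7 CPM in the KO and 3, 3, 0 and 2 counts in the controls. It had 7 related genes, the closest 94.8% identical over 64% of its transcript, so its counts may be shared with them. All 4 that were tested were called higher, too few to set against the 23.8% of all genes. Gm13599 (chromosome 2) had 2.66, 2.01, 1.76 and 2.80 CPM and no control count. Gm26909 (1.27 to 2.07 CPM) and Gm16958 (1.27 to 1.55 CPM) also had no control count. The smallest spread of all 41 genes was that of Gm16958, whose highest KO level was 1.22 times its lowest.

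Gm12730 (1.27 to 2.62 CPM), Gm29601 (1.22 to 2.18 CPM), Gm26629 (1.16 to 1.94 CPM) and Gm29326 (1.04 to 2.02 CPM) were of similar level. Gm4755 (0.709 to 0.985 CPM) and Gm10845 (0.579 to 0.844 CPM) were among the weakest and, with ratios of highest to lowest KO level of 1.39 and 1.46, among the most even. The floor of 0.5 CPM in every KO library leaves genes this weak little room to spread, so the rule fixes their evenness in large part. Gm16239 differed from the other noncoding RNAs in its spread. It had 0.926, 0.609, 4.43 and 6.94 CPM in the KO libraries (replicates 1 to 4) and no control count, and its ratio of 11.4 was the only one above 5 in the class. It holds a sequence like the short repeated entry Gm25774 described next, and its counts may be shared through it.

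Gm25774 (ENSMUSG00000080367, chromosome 7, 103415806 to 103415926, plus strand) is a microRNA entry of 121 bases. It lies within Usp17lc, outside its exons and on the same strand. Its transcript had 188 related genes, 134 of them at 95% identity or more, so its counts cannot be tied to this locus. It had 1.505, 0.852, 4.64 and 6.42 CPM in the KO and no control count, and Usp17lc, a deubiquitinase gene, had 19.0, 18.4, 70.7 and 76.8 CPM in the KO and at most 0.321 CPM in the controls. Both were higher in KO replicates 3 and 4 than in 1 and 2.

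Per kilobase of exon the order of mean KO levels changed. The highest were Gm25774 at 27.7 CPM per kb, Gm2056 at 24.4, Gm6803 at 19.1 and Gm27224 at 14.01 CPM per kb, and the lowest was Gm37233 at 0.162 CPM per kb. Gm25774, at 121 bases, is shorter than the study's reads, so its value per kilobase is not a measure of abundance. The SDs over the 4 KO libraries were 21.7, 17.8 and 17.5 CPM per kb for the first 3. All were measured in the same libraries, so these SDs do not measure the spread of their differences, and the order was not tested. The median was 2.85 CPM per kb for the protein-coding models, 2.29 for the pseudogenes and 1.23 for the long noncoding RNAs.

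The genes also differed in how even they were across the 4 KO libraries. As a description, the chi-square of the 4 counts against equal CPM, divided by its 3 degrees of freedom, is about 1 where only counting error is present. Its median was 1.20 over the 19 long noncoding RNAs, 3.06 over the 11 pseudogenes and 12.8 over the 10 protein-coding models. At the same relative spread this value grows with the counts, and the median KO means of these classes were 1.43, 1.23 and 4.60 CPM. It therefore does not compare the evenness of classes that differ in level. The ratio of highest to lowest KO level had medians of 1.79, 2.43 and 4.15 in the same classes, and the rule's floor in each KO library limits it in weak genes. It exceeded 5 in 9 genes, 8 of which had a related gene in the annotation. The other, Gm16239, is itself a related gene of Gm25774, since it holds a sequence like that entry. Of the 41 genes, 21 were highest in KO replicate 4, the deepest KO library, 10 in replicate 3, 6 in replicate 2 and 4 in replicate 1.

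A list of 2-cell stage genes, chosen with earlier results of these data known, was set beside this unevenness. The list holds Zscan4, Usp17l, Tdpoz and Tcstv genes, Pramef25 and all 7 Gm names left out by the rule. It also holds Duxf3, Zfp352, Pramel6, Pramel7, Arg2, Sp110, Tmem92 and Ddit4l. Of its 33 tested genes, 29 were called higher in the KO and none lower, against 23.8% and 6.56% of all genes. Because of how the list was chosen, nothing is read from these calls. In the KO libraries 1 to 4, the median level of the list's genes, each divided by its own KO mean, was 0.295, 0.244, 1.53 and 1.82. For the 21 predicted genes with relatives these medians were 0.683, 0.628, 1.16 and 1.43, and for the 20 without they were 0.840, 0.920, 1.11 and 1.09. The list and the related genes are partly the same sequences, so they are not independent. Unlike the predicted genes, the genes of the list did not have to reach 0.5 CPM in each KO library, which leaves them more room to spread. Granulosa marker sums were 291, 300, 249 and 243 CPM in the KO libraries (replicates 1 to 4), and the part of these cells in the pattern was not tested. Total counts were 8639444, 16432525, 14210736 and 26784110 in the same order, and the part of depth in the pattern was not tested.

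**Figure D3:**
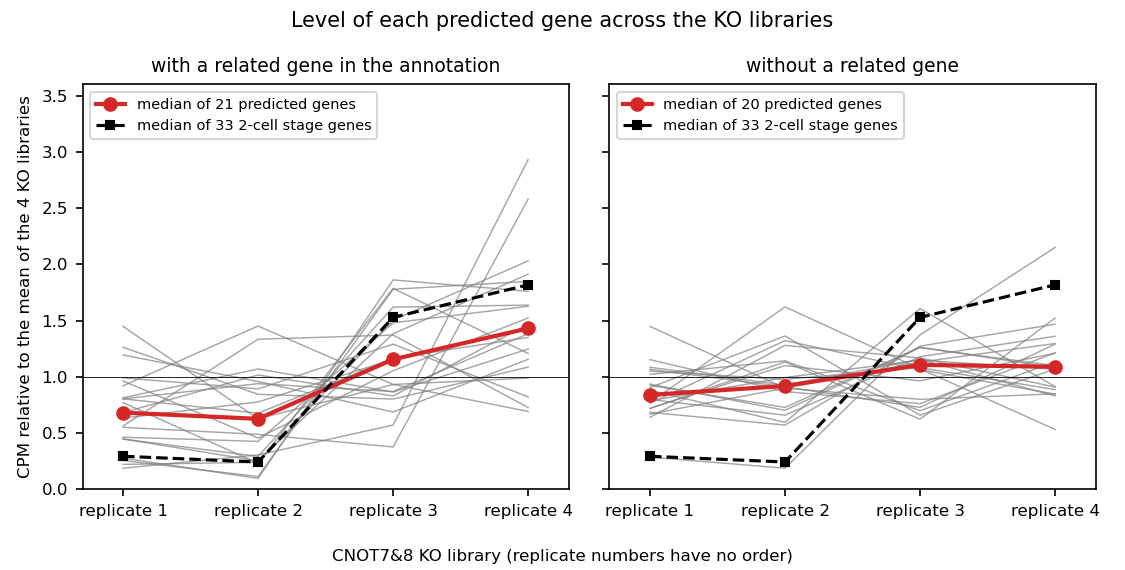
CPM in each CNOT7&8 KO library divided by the gene's mean over the 4 KO libraries (vertical axis), for the 21 predicted genes with a related gene (left) and the 20 without (right). Grey lines are single genes, the red line their median and the dashed black line the median of 33 2-cell stage genes, which runs 0.295, 0.244, 1.53 and 1.82. The red medians run 0.683, 0.628, 1.16 and 1.43 on the left and 0.840, 0.920, 1.11 and 1.09 on the right.

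Many of the predicted genes lay in or beside another gene. Of the 41, 19 overlapped another annotated gene, 14 of them on the opposite strand and 7 on the same strand, and 25 overlapped one or lay within 5 kb of one. The exons of 8 overlapped exons of another gene. In 11 cases a protein-coding gene was overlapped on the opposite strand, and 9 such protein-coding genes were measured well enough to be tested. Of these 9 genes, 4 were called higher in the KO, none lower and 5 neither, against 23.8% higher and 6.56% lower over all genes, and nothing is read from so few genes. The library kit marks strand, but the strand setting used in counting is not given in the sources used here, so reads of a predicted gene and its antisense partner may not be separated. In 2 genes the exon overlap was on the same strand, where strand cannot separate reads. Gm11427 shares 491 exonic bases with AI662270, which had 8.84 ± 2.24 CPM in the KO and 0.0621 ± 0.0567 CPM in the controls. Gm37233 shares 79 with the microRNA entry Mir5103, which had no counts.

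Among the 4 called higher were the partners of Gm26629 and Gm16958. Sorcs1, a sorting receptor gene, had 9.45 ± 1.27 CPM in the KO against 0.270 ± 0.158 CPM (log2 change 4.70 ± 0.33, adjusted p = 6.0e-07). Ank2, which encodes ankyrin B, had 6.45 ± 0.458 against 0.647 ± 0.317 CPM (2.98 ± 0.30, 8.1e-06). Cln6, an endoplasmic reticulum membrane protein gene, and the calmodulin-like gene Calml4, both opposite Gm10653, had log2 changes of 1.55 ± 0.28 (adjusted p = 0.000588) and 1.87 ± 0.32 (0.000413).

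The other 5 tested partners were called neither higher nor lower. Poc1b, a centriole protein gene opposite Gm16239, stood at 18.0 ± 2.73 CPM in the KO and 18.0 ± 2.85 CPM in the controls (adjusted p = 0.169). Il1rap, the interleukin 1 receptor accessory protein gene opposite Gm20319, stood at 41.4 ± 4.57 and 40.6 ± 3.29 CPM (adjusted p = 0.118), and 552 exonic bases of Gm20319 overlap its exons. Polb (DNA polymerase beta, opposite Gm26909) had a log2 change of -0.99 ± 0.11 (adjusted p = 2.2e-05), Nek1 (a protein kinase, opposite Gm16178) one of -0.63 ± 0.16 (0.00622) and Tut4 (a terminal uridylyltransferase, opposite Gm12739) one of 0.77 ± 0.28 (0.0349), all short of 2-fold. Some untested partners were at or near 0 in both groups, among them Trim7 (opposite Gm16170) and the protamine gene Prm1 (opposite Gm10343). Gm26645 overlapped Gm6556 on the same strand, outside its exons. Gm6556 had 2.99 ± 0.816 CPM in the KO and 0.0828 ± 0.0355 CPM in the controls. Gm26645 also lay 1940 bases from Gli3, a transcription factor of the Hedgehog pathway, on the other strand. Gli3 had 302 to 449 CPM in the KO and 15.01 to 33.5 CPM in the controls (log2 change 3.39 ± 0.24, adjusted p = 6.4e-07), while Gm26645 had 1.97, 1.64, 3.66 and 4.22 CPM in the KO and 3 counts in all controls.

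**Figure D4:**
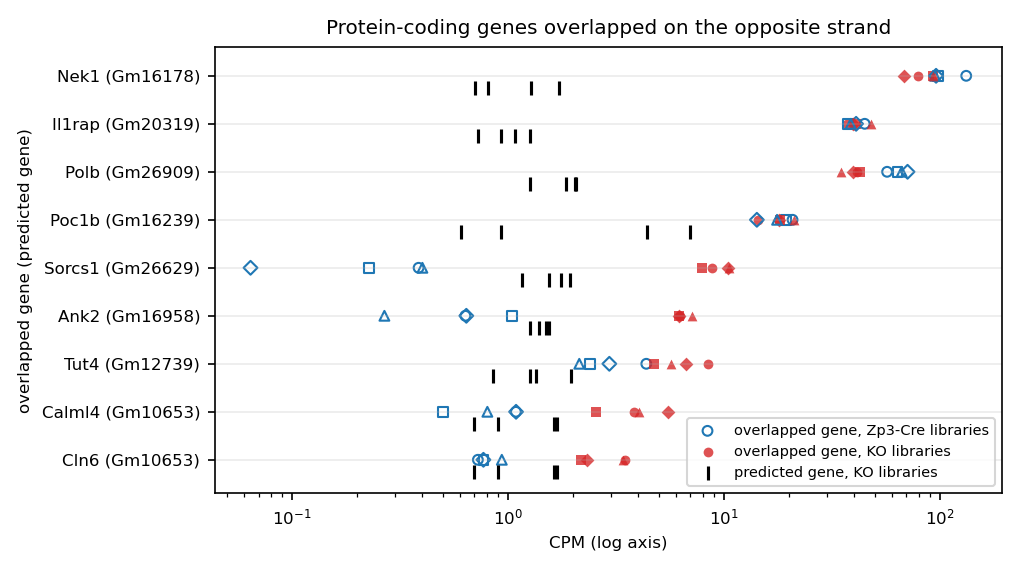
CPM (log axis) of the 9 tested protein-coding genes that a predicted gene overlaps on the opposite strand, in the Zp3-Cre libraries (open blue symbols) and the KO libraries (filled red symbols, symbol shape for the replicate as in the plot of all predicted genes). Black ticks give the predicted gene, named in parentheses, in the 4 KO libraries. Sorcs1, Ank2, Cln6 and Calml4 separate the groups with KO higher, while Poc1b and Il1rap overlap (18.0 and 18.0 CPM, 41.4 and 40.6 CPM). In CPM, Tut4 also separates them with KO higher, and Polb and Nek1 with KO lower, though none of these was called.

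RefSeq promoters (250 bases before to 50 after the gene start, GRCm38.p6) matched 12 of the 41 genes. On either strand, TATAAA stood in 3 of the 12 (Gm6803, Gm5622 and Gm13485), against 14.2% of all 27025 promoters of the same length. CCAAT stood in 6 of the 12, against 37.9%. TAATCC stood in 1 (7.16% of all) and CCGCCC in 2 (35.9% of all). The median number of CG pairs per promoter was 4 in the 12 and 7 in all promoters. For Gm13248, Gm13599 and Gm12695 the RefSeq start lay 98113, 3212 and 1565 bases from the GENCODE start, so these windows may not be the promoters of the models counted. Gm13599 and Gm12695 are among the 6 with CCAAT, Gm13599 is the 1 with TAATCC, Gm12695 is 1 of the 2 with CCGCCC, and none of these 3 held TATAAA.

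Several genes stood close to the thresholds. Just inside the KO floor were Gm12091 (lowest KO level 0.523 CPM), Gm15364 (0.548 CPM) and Gm14153 (0.560 CPM), and just outside were Gm10139 (0.493 CPM), Gm16041 (0.487 CPM) and Gm11431 (0.463 CPM). At the control ceiling, 10 genes inside had a highest control count of 3, among them Gm10653, Gm27224 and Gm12091 with 8, 8 and 7 control counts in all. Outside it, 13 Gm genes with at least 0.5 CPM in every KO library had a highest control count of 4, among them Gm4425, Gm14127 and Gm44 with 5, 6 and 6 control counts in all. A control ceiling of 0 counts leaves 11 genes and one of 10 counts gives 116.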

How the data were processed

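RNA-seq of GV oocytes comprised 4 CNOT7&8 KO and 4 Zp3-Cre libraries, grouped by the deposited labels. The authors deposited raw read counts per gene, mapped to GRCm38 with STAR 2.6.1d (edgeR 3.11 is named in the submitters' processing notes). The labels name a stranded total RNA kit with ribosomal RNA removal and the study's methods a stranded mRNA kit; the counting tool, annotation and strand setting are not given in the sources used here. CPM were computed from column totals. The groups were compared over genes with at least 0.2 CPM in 2 libraries by edgeR 4.0.16 quasi-likelihood tests with TMM scaling and Benjamini-Hochberg adjustment, without the replicate number as a block, and the script was tested on simulated data. Alternatives were the edgeR exact test, DESeq2, other scalings and filters, the replicate block and leaving out each library. The quasi-likelihood test gives no SE, so each SE of a log2 change is its absolute value divided by the square root of the test's F statistic. Fold bounds used a floor of 3 counts per control library, and intervals are exact conditional binomial intervals at 95%, covering counting error only.

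All 41 identifiers were found in GENCODE vM21. Related genes were found with blastn 2.17.0 against its transcripts. Members and lists were chosen with earlier results of these data known. Named genes were those with the 20 highest KO means, the 5 largest and 5 smallest ratios of highest to lowest KO level, members within 20000 bases of each other, the 3 nearest each threshold and their neighbours within 5 kb; source genes, related genes and remaining members of a class were named after their values were seen. The plots were drawn with matplotlib.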

Additional observations from a re-analysis of the deposited data

Results flagged for a closer look

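Of 117 groups of 4 values screened, 7 had a highest or lowest library whose gap to the nearest other library, divided by the range of the group, was above Dixon's critical value at the 95% level, and chance flags about 1 group in 20. Control values of the predicted genes, all at 0 to 3 counts, were not screened. Gm7942 and Gm7647, both of the PRAME-like cluster of chromosome 5, were highest in KO replicate 4, at 18.0 CPM (ratio 0.86) and 8.66 CPM (0.921). Gm13485, a long noncoding RNA, was highest in KO replicate 1 at 1.27 CPM (0.847). Ank2, the gene opposite Gm16958, was highest in KO replicate 4 at 7.13 CPM (0.938). In the controls, Gli3 was lowest in replicate 3 at 15.01 CPM (0.834), Nek1 was highest in replicate 1 at 133 CPM (0.931), and Speer4a was highest in replicate 1 at 13.3 CPM (0.84).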

How the results depend on the processing

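Of 751 values recomputed under an alternative, 632 were fold changes of single predicted genes, whose call the rule largely fixes, as it does the number of the 41 that were called, so nothing is read from these. Of the other 102 values, 88 stayed within the limits used here and 14 moved. For counts of genes the limit was a factor of 1.5. For the summed CPM and the share held by Gm2056 it was the SD over the libraries of the group. With at least 1 CPM required in 4 libraries, fewer genes were tested: 2882 of all genes and 291 Gm genes were called higher (against 4582 and 787), 80 Gm genes lower (against 143), and 17 of the 41, all that were tested. With total counts only, 587 of all genes and 80 Gm genes were called lower (against 1263 and 143), and 922 Gm genes were then called higher. That setting leaves out the TMM factors, which were 0.849 to 0.943 in the controls and 1.07 to 1.14 in the KO libraries. With an adjusted p of 0.05 alone, which drops the 2-fold requirement, 4631 of all genes and 233 Gm genes were called lower. The number of genes chosen by the rule was 11 at 0 counts per control, 116 at up to 10, and 85, 17 and 3 at KO floors of 0.25, 1 and 2 CPM. Leaving out 1 library gave 41 to 80 genes, with 80 without Zp3-Cre replicate 1, the deepest control, where 3 counts are the lowest CPM. Gm2056 held 10.3% of the KO counts of the set. Among the 15 genes with no overlapping gene and no relative at 95% identity, Gm27224 held 24.7%, but its closest relative was 94.8% identical.

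With the replicate number as a block, 4316 of all genes were called higher and 1254 lower, 704 and 139 of the Gm genes, and 41 of the 41. Same-numbered libraries did not deviate together (correlations of -0.07, -0.04, 0.11 and -0.12). The largest correlation, 0.37, was between KO replicate 4 and control replicate 1. So few libraries cannot settle whether the numbers pair the samples. The lowest values, such as 5 counts in KO replicate 1, set the limit of precision.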

Other observations

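Genes with other names met the same thresholds as the 41 predicted genes. There were 147 of them, 20 with Rik names, and 120 (81.6%) were protein-coding. Their median mean KO level was 1.69 CPM, against 1.55 CPM for the predicted genes, and their ratio of highest to lowest KO level had a median of 2.01, against 2.07. Of the 7 Gm names that the rule left out, 3 met both thresholds.

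The 2 annotations did not class all the predicted genes alike. RefSeq records were found for 29 of the 41. Gm15455, a processed pseudogene in GENCODE, is listed as protein-coding in RefSeq, while Gm2056, Gm4778 (Spopfm1) and Gm13101 (Pramel28), protein-coding in GENCODE, are listed there as pseudogenes.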
